A study of Mus musculus with 21 samples.

Results

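Skeletal muscle of diabetic FoxO triple knockout mice was compared with muscle of untreated floxed controls, to find what still differs from normal muscle when diabetes and FoxO loss are combined and which diabetic changes are back at the normal level. The samples were chosen by their labels: 6 diabetic knockout libraries (title numbers 4, 8, 11, 12, 15 and 18) and 4 floxed control libraries (1, 5, 9 and 19), which make 10 of the 21 libraries of the series. Floxed controls carried floxed Foxo1, Foxo3 and Foxo4 alleles without Cre and received no streptozotocin (STZ), a toxin that destroys the insulin-producing beta cells of the pancreas. Diabetic knockouts (STZ TKO) carried the same floxed alleles with ACTA1-Cre, a Cre recombinase driven by the promoter of skeletal alpha-actin, and received 150 mg/kg STZ once after an overnight fast, with a further 75 mg/kg on day 3 in females. Only animals with random blood glucose above 300 mg/dL were kept. Littermates of a mixed C57Blk6 and 129 background were used, and the labels give neither age nor sex for a library. RNA came from pooled quadriceps and gastrocnemius powder, so the libraries hold every cell type of the tissue, while ACTA1-Cre acts in the muscle fibres. The 5 STZ floxed control and 6 untreated knockout (TKO) libraries serve below as reference points.

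FoxO factors are transcription factors that insulin, through the kinase Akt, keeps out of the nucleus. When insulin is low they enter the nucleus and turn on genes of protein breakdown, autophagy and stress resistance, and they restrain growth signalling. Loss of insulin also acts on muscle by routes outside FoxO: the supply of fatty acids and ketone bodies rises, and nuclear receptors such as PPAR respond to fatty acids.

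Values per library are CPM, read counts scaled to a common library size that is adjusted for composition. Differences are log2 fold changes, diabetic knockout minus floxed control, with the standard error (SE), and "called" means an adjusted p under 0.05 over 12658 tested genes in edgeR's quasi-likelihood test. Total counts were 4176132 to 7687823 in floxed controls and 3586183 to 6234979 in diabetic knockouts. The 10 defining genes of skeletal muscle summed to 169000 to 244000 CPM in floxed controls and 122000 to 204000 in diabetic knockouts, with none called. Whether libraries came from different animals is not stated in the labels, so p-values measure the spread between these libraries, which may be technical. In whole muscle, fewer cells of a type and less RNA per cell cannot be told apart.

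The deleted genes check the labels. For Foxo4 (chromosome X, 101254528 to 101260873, GRCm38) there were 124, 153, 166 and 195 CPM in the floxed controls and 5.35, 5.64, 6.47, 6.67, 7.77 and 12.7 CPM in the diabetic knockouts, a log2 difference of -4.42 ± 0.21 (adjusted p = 8.1e-12). Foxo1 (chromosome 3, 52268336 to 52353221) had 46.8 to 113 CPM against 10.9 to 26.7 CPM, a difference of -2.12 ± 0.30 (adjusted p = 0.000363). Every diabetic knockout lay below every floxed control for both. Foxo3 (chromosome 10, 42181841 to 42276755) was not called, with 64.1 to 89.4 CPM against 74.0 to 233 CPM (0.90 ± 0.24, adjusted p = 0.0554). It was called higher, among other settings, without library 8 (1.02, adjusted p = 0.0188), without library 4 (0.98, 0.044), without library 12 (0.97, 0.0372) and without STZ floxed library 17 (0.91, 0.0397). Counts over the whole gene can include exons outside the deleted part, so this count is no check of the Foxo3 deletion.

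Of the 12658 genes, 320 were called (2.53%), 155 higher (1.22%) and 165 lower (1.3%) in diabetic knockout muscle. These shares are the background for the counts of called list members below. The median log2 difference over all genes was 0.04. The called genes that were higher had a median of 2.27, and those that were lower a median of -1.24, so the increases were larger than the decreases. No diabetic knockout library overlapped any floxed control for 267 of the 320, against 5.7% of all genes. The 320 were selected on these same libraries, so their lack of overlap is largely fixed by that choice. Of the 320 genes, 36 were also called in the STZ effect in floxed muscle (1.35% of all genes), 152 in the knockout effect under STZ (4.89%), 50 in the knockout effect without STZ (0.514%) and 15 in the STZ effect in knockouts (0.142%). None of these 4 comparisons, which change 1 factor each, called the remaining 125. These comparisons share libraries with the one described here, so the counts are given side by side only. The count of 320 rested on each of the 4 floxed controls: leaving out library 1, 5, 9 or 19 gave 70, 101, 108 and 156 called genes. It was also 183 without diabetic knockout library 15.

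Acot1, Acot2, Scd1, Oxct1 and Slc2a4 were among the genes that diabetes had changed and that still differed. Acot1 and Acot2 encode acyl-CoA thioesterases, which free fatty acids from their coenzyme A esters. Acot1 (chromosome 12, 84009490 to 84018371) had 0.418, 0.716, 1.11 and 1.72 CPM in floxed controls and 8.28, 11.4, 11.5, 21.4, 24.9 and 34.9 CPM in diabetic knockouts. The groups did not overlap, and the difference was 4.25 ± 0.50 (adjusted p = 4.3e-05). STZ floxed muscle had 22.5 ± 8.41 CPM (SD, n = 5) and diabetic knockouts 18.7 ± 10.2 (n = 6). Acot2 rose as well, from 20.0 ± 4.5 CPM (SD, n = 4) to 74.0 ± 35.6 (1.89 ± 0.32, adjusted p = 0.00371), with libraries 4 and 8 lowest at 38.0 and 40.0 CPM. The genes are near-identical neighbours, and the count of either may include or lack reads of the other.

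Scd1, the desaturase that makes monounsaturated fatty acids, stayed low. It had 270.0, 346, 353 and 364 CPM in floxed controls and 20.0, 26.9, 36.9, 44.2, 81.0 and 98.1 CPM in diabetic knockouts, a difference of -2.71 ± 0.43 (adjusted p = 0.00132). Oxct1, an enzyme of ketone body use, had 469 to 620 CPM in floxed controls and 85.8, 99.6, 127, 141, 154 and 246 CPM in diabetic knockouts (-1.88 ± 0.24, adjusted p = 0.000174). No diabetic knockout reached the floxed range for either gene. Both lay close to the STZ floxed means, which were 39.8 ± 17.5 CPM for Scd1 and 158 CPM for Oxct1. Acot1, Acot2, Scd1 and Oxct1 kept their calls in all 25 alternative settings.

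Slc2a4, the insulin-responsive glucose transporter GLUT4, had 921, 926, 1090 and 1200 CPM in floxed controls and 477, 509, 527, 540, 576 and 691 CPM in diabetic knockouts. The groups did not overlap, and the difference was -0.90 ± 0.22 (adjusted p = 0.028). In STZ floxed muscle it was -1.36 ± 0.23, and the step from there to the diabetic knockouts was 0.46 ± 0.21 and not called (adjusted p = 0.23). The Slc2a4 call was lost without library 1 (adjusted p = 0.101), 5 (0.106), 9 (0.0582) or 15 (0.065). Adding the macrophage marker level of each library to the fit gave -0.50 (0.456). That level was -1.25 to -0.97 in floxed controls and -0.59 to 2.17 in diabetic knockouts, without overlap. Here and below, a fit with it therefore cannot fully tell that level apart from the difference between the groups.

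**Figure D1:**
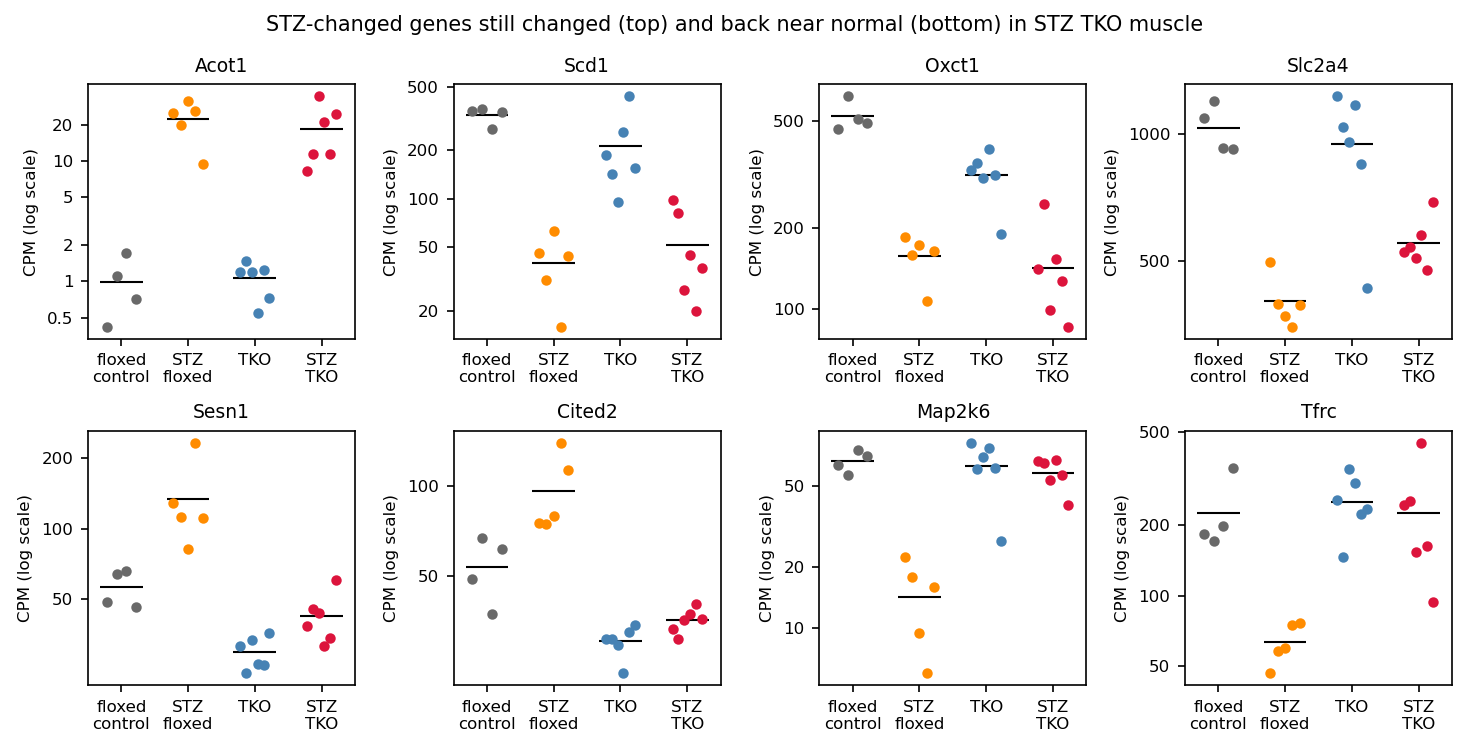
CPM on log axes in each library of the 4 groups, with horizontal lines at the means, for genes that were still changed (top row) and genes back near normal (bottom row) in STZ TKO muscle. Acot1, Scd1, Oxct1 and Slc2a4 sat apart from the floxed controls in every STZ TKO library, while Sesn1, Cited2, Map2k6 and Tfrc overlapped them.

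Of 41 measured genes of fat oxidation and ketone body use 5 rose and 2 fell, and the median was 0.22 against 0.04 over all genes. Besides Acot1 and Acot2, the genes that rose were Angptl4, an inhibitor of lipoprotein lipase (8.16 ± 3.76 to 30.9 ± 13.1 CPM, 1.92 ± 0.41, adjusted p = 0.0204), the fatty acid transporter Cd36 (422 ± 59.8 to 879 ± 259 CPM, 1.06 ± 0.26, 0.0351) and the lipid droplet protein Plin5 (18.3 ± 3.95 to 46.7 ± 14.3 CPM, 1.35 ± 0.30, 0.0233). Cd36 and Plin5 had not been called under STZ in floxed muscle (0.80, adjusted p = 0.15, and 0.71, 0.31), and the difference between these calls was not itself tested. Acot7, another thioesterase, fell with Oxct1 (-0.98 ± 0.23, 0.023). Bdh1, another enzyme of ketone use, was not called and had 30.5 ± 12.1 CPM in floxed controls, 9.37 in STZ floxed muscle and 23 ± 14.5 in diabetic knockouts (-0.39 ± 0.42, adjusted p = 0.686). Across the settings 2 to 9 of the 41 were called higher and 1 or 2 lower. Angptl4 lost its call without library 1 (adjusted p = 0.0753), 5 (0.0745) or 19 (0.0697), Plin5 without the same libraries (0.0832 to 0.092), Acot7 without 1, 5 or 9 (0.0596 to 0.11) and Cd36 without 1, 5, 9, 11, 18 or 19 (0.0559 to 0.148).

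Diabetes changed 171 genes in floxed muscle (1.35% of those tested), and these were sorted by where the diabetic knockouts stood. A gene counted as still changed when the combined difference was called with the same sign. It counted as back at the normal level when the knockout effect under STZ was called with the opposite sign and the 95% interval of the combined difference lay within 1 log2 unit (2-fold) of the floxed controls. These rules use the comparisons themselves, which share the floxed control and STZ floxed libraries, so the counts describe and test nothing. By them 34 genes (19.9%) were still changed, 42 (24.6%) were back, 2 (1.17%) were past the normal level on the other side, and 93 (54.4%) could not be placed. Over all tested genes, 59.6% had an interval within the same 2-fold window.

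The still changed genes were 10 higher and 24 lower. Their median difference under STZ was 2.30 for the higher and -1.75 for the lower genes, and in diabetic knockouts it was 1.84 and -1.41. Besides the metabolic genes they included Cat, the catalase that breaks down hydrogen peroxide and a known FoxO target (0.80 ± 0.21, adjusted p = 0.0463). Cat had 67.5 to 98 CPM in floxed controls and 82.8 to 214 CPM in diabetic knockouts, where library 8 lay within the floxed range, and its call was lost in 16 of 25 settings, among them without library 1, 5, 7, 9, 11, 12, 14, 15, 18, 19 or 21 (adjusted p = 0.0515 to 0.183). Ppara, a fatty acid-sensing nuclear receptor, fell by 1.10 ± 0.30 (adjusted p = 0.0465), a call lost in 15 settings, among them without library 1, 3, 4, 5, 7, 9, 12, 14, 15, 18 or 21 (0.0505 to 0.181). The extracellular matrix gene Sparc fell by 1.33 ± 0.34 (adjusted p = 0.0351) and the basement membrane collagen Col15a1 by 1.62 ± 0.40 (0.0304), and both lost the call without library 1 (0.215 and 0.152), 11, 18 or 19, and Sparc also without 8, 12 or 15 (0.0519 to 0.0887 over these fits) and Col15a1 without 5 (0.0745). Library 4 lay within the floxed range of both, with 492 CPM of Sparc against 427 to 1390 and 50 CPM of Col15a1 against 47.7 to 121, and the other diabetic knockouts lay below it.

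Genes induced by interferon were part of the same group. Irgm1, Iigp1 and Ifi47 are guanosine triphosphatases of the interferon-gamma response, and H2-Q7 is a class I antigen presentation molecule. Irgm1 had 14.5 to 20.3 CPM in floxed controls and 20.5 to 39.1 CPM in diabetic knockouts, without overlap (0.75 ± 0.18, adjusted p = 0.034). Iigp1 had 4.87 to 9.66 CPM against 18.7 to 49.5 CPM in 5 diabetic knockouts, and 4.69 CPM in library 18 (1.79 ± 0.45, 0.0429). Ifi47 rose by 1.90 ± 0.51 (0.0465) and H2-Q7 by 1.68 ± 0.43 (0.04). Of the 25 interferon response genes, 2 rose and 24 were positive, with a median of 0.87 (0.49 without libraries 4, 8 and 15). All 4 genes lost their calls without library 1 (adjusted p = 0.115 to 0.178), without library 5 (0.112 to 0.155), without library 9 (0.0555 to 0.0935), without library 15 (0.0777 to 0.11) and without library 19 (0.0764 to 0.124). Further fits without 1 library also lost Iigp1 (7, 8, 11 or 21), H2-Q7 (4, 11 or 18) and Ifi47 (3, 4, 7, 11, 12, 14 or 21), at 0.0509 to 0.0583. All 4 calls were also lost with the run of library codes as a block (0.0647 to 0.0906) and with macrophage marker level in the fit (0.21 to 0.373).

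Foxo6os, a transcript antisense to Foxo6, was still low but had moved part of the way. It had 10.6 to 22.4 CPM in floxed controls, 0.0 to 1.04 CPM in STZ floxed muscle and 0.852 to 7.63 CPM in diabetic knockouts. The combined difference was -2.10 ± 0.42 (adjusted p = 0.00843), and the step between the STZ groups was 2.85 ± 0.61 (0.0035). It was the 1 gene of the 34 with a called knockout effect under STZ. Its reads cannot be told apart from those of Foxo6 unless the count used the strand.

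The 42 genes back at the normal level were 20 that STZ had raised (median 1.18, and -0.09 in diabetic knockouts) and 22 that it had lowered (median -1.35, and -0.13). None of them was called in the knockout effect without STZ, where 0.514% of all genes were called, so they are not shown to be unchanged there. Their differences in that comparison ran from -0.97 (Rph3al, adjusted p = 0.0894) to 0.97 (Trim7, 0.111). In 4 of the 42 the interval of the combined difference excluded 0 while staying within 2-fold: Cbx7, Cited2, Ptpn3 and Trp53inp2, named after their values were seen. The diabetic knockouts overlapped the floxed controls in all but Cbx7.

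Among the genes that diabetes had raised were Sesn1 and Cited2, both known FoxO targets. Sesn1, a stress-induced brake on mTOR signalling (chromosome 10, 41809935 to 41908424), had 46.3, 48.6, 64.3 and 66.0 CPM in floxed controls, 82.2 to 234 CPM in STZ floxed muscle and 31.6, 34.1, 38.2, 43.4, 45.5 and 60.4 CPM in diabetic knockouts. Diabetic knockouts reached from below the floxed range into it, with a combined difference of -0.42 (95% interval -0.91 to 0.08). Cited2, a transcriptional co-regulator, had 37.2 to 66.8 CPM in floxed controls, 74.5 to 140.0 in STZ floxed muscle and 30.6 to 40.2 in diabetic knockouts (-0.59, interval -1.0 to -0.19). Cited2 lay at the low edge of the window and met the rule in 7 of 24 alternative settings, and Sesn1 in 19, not without library 1, 18 or 19. Spns2, the exporter of sphingosine-1-phosphate, had 39.5 to 58.7 CPM in floxed controls, 153 to 236 in STZ floxed muscle and 36.5 to 90.9 in diabetic knockouts (0.15, interval -0.37 to 0.68). Others were the fatty acid transport protein Slc27a1, the interleukin-6 family receptor chain Il6st and Rhou, a small guanosine triphosphatase.

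Among the genes that diabetes had lowered, Map2k6, an upstream kinase of p38, showed the largest STZ effect. It had 56.5, 63.5, 70.0 and 74.8 CPM in floxed controls, 6.0 to 22.3 CPM in STZ floxed muscle and 40.3, 53.5, 56.9, 65.2, 66.1 and 67.0 CPM in diabetic knockouts. The difference of -2.21 ± 0.30 under STZ was -0.19 in diabetic knockouts (interval -0.78 to 0.40). Tfrc, the transferrin receptor for iron uptake, had 225 ± 83.1 CPM (SD, n = 4) in floxed controls, 63.3 ± 12.7 (n = 5) in STZ floxed muscle and 226 ± 125 (n = 6) in diabetic knockouts (0.01, interval -0.66 to 0.67). The range of diabetic knockouts was wide, from 94.0 CPM in library 18 to 450.0 in library 12. Smad3, a mediator of TGF-beta and myostatin signals, had 162 to 169 CPM in floxed controls and 70.7 to 358 CPM in diabetic knockouts, so its mean was normal while single libraries were not. Hr, a nuclear receptor corepressor, behaved in the same way, with 106 to 118 CPM against 48.5 to 229 CPM. Fndc5, the precursor of irisin, Nmrk2, a muscle enzyme of NAD synthesis, and Dnm1l, the mitochondrial fission protein DRP1, also met the rule.

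**Figure D2:**
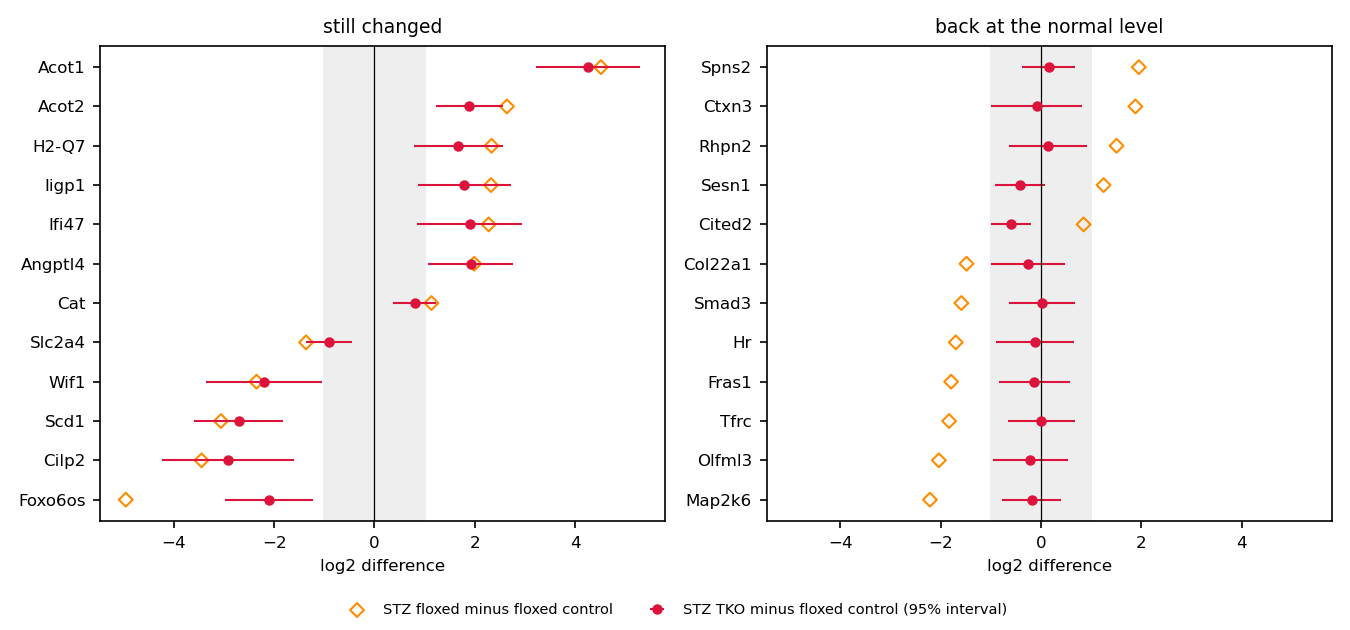
Log2 differences from floxed controls for named genes still changed (left) and back at the normal level (right): filled points with 95% intervals are STZ TKO muscle, open diamonds STZ floxed muscle, and the grey band is 1 log2 unit either way. Intervals on the right lie inside the band, with STZ effects outside it for all but Cited2 (0.85), and on the left Acot1 (4.25) and Scd1 (-2.71) stay near their diamonds.

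The classes depended on the libraries. Of the 42 genes, 27 met the rule for return in at least 12 of 24 alternative settings, and 1 (Zcchc24) met it in all. Map2k6 and Tfrc met it in 23 and Spns2 in 22. Of the 34 still changed genes, 23 met their rule in at least 12 settings and 5 in all of them (Acot1, Acot2, Foxo6os, Oxct1 and Scd1). Returned genes were 42 of 171 called under STZ in the main fit. Leaving out 1 floxed control brought this to 7 of 31 (library 1), 9 of 50 (library 19), 11 of 80 (library 9) or 15 of 73 (library 5). Leaving out 1 STZ floxed library gave 16 of 68 (library 7), 20 of 71 (library 17), 21 of 92 (library 21), 22 of 75 (library 14) or 76 of 333 (library 3). Still changed genes numbered 7 (library 1 left out), 15 (library 5 or 19), 16 (library 7 or 9), 18 (library 14 or 15) and 22 (library 11). The set of genes called under STZ thus changed in size with each fit, and the counts of both classes depend on that size.

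A pair of genes lay past the normal level in diabetic knockouts, and both were also called in untreated knockouts. Ddah1, which breaks down the endogenous inhibitor of nitric oxide synthase (chromosome 3, 145758675 to 145894277), had 8.78, 9.05, 11.6 and 12.8 CPM in floxed controls, 1.82 to 3.36 CPM in STZ floxed muscle and 16.3, 19.0, 19.2, 20.4, 22.1 and 33.0 CPM in diabetic knockouts. The 3 groups did not overlap. Diabetes lowered it by 1.96 ± 0.24 in floxed muscle, and the combined difference was 1.04 ± 0.21 (adjusted p = 0.0111), a call lost without library 1 (0.0653) or 9 (0.0555). The interaction, which tests whether the combined difference departs from the sum of both single effects, was called for this 1 gene (0.0079% of those tested; 1.92, adjusted p = 0.0179), with 493 genes at an unadjusted p under 0.05. Avil, whose product advillin binds actin, went the other way, from 1.28 under STZ to -1.90 in diabetic knockouts (interval -2.51 to -1.30), and was called in all 25 settings. In untreated knockouts Ddah1 stood at 1.07 (adjusted p = 0.0169) and Avil at -1.51 (0.00963) against floxed controls. The STZ effect in knockouts was -0.03 for Ddah1 and -0.39 for Avil, neither called (0.964 and 0.579).

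A further set of genes was low in diabetic knockouts without having been called under STZ in floxed muscle. Tspan8, a tetraspanin (chromosome 10, 115816832 to 115849893), had 92.4, 98.9, 137 and 161 CPM in floxed controls and 3.4, 4.26, 8.61, 11.8, 21.4 and 23.4 CPM in diabetic knockouts (-3.35 ± 0.43, adjusted p = 0.000236). Pik3ip1, an inhibitor of phosphatidylinositol 3-kinase, had 39.9 to 82.7 CPM against 9.87 to 12.4 CPM (-2.21 ± 0.22, 4.02e-06). Klhl33 (-2.83 ± 0.41, 0.000704), the potassium channel subunit Kcnab1 (-3.03 ± 0.48, 0.00095), Dpysl5 (-3.23 ± 0.60, 0.0033) and Chac1, which breaks down glutathione (-2.28 ± 0.41, 0.00338), were also low. None of these genes had a diabetic knockout library within the floxed range. In untreated knockouts Tspan8 stood at -3.71 and Pik3ip1 at -2.34, both called, and Klhl33 at -1.50, not called (adjusted p = 0.0895). Tspan8, Pik3ip1, Klhl33 and Dpysl5 kept their calls in all 25 settings, while Kcnab1 and Chac1 lost theirs with the macrophage covariate (adjusted p = 0.0523 and 0.0833).

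In the list of 20 growth and stress genes linked to FoxO, Cat rose, Pik3ip1 fell and 18 were not called, with a median of -0.24. The interval lay within 2-fold of the floxed controls for 10 of them, against 59.6% of all genes, so a gene that was not called is not shown to be at the normal level. Their mean level per library, as centred log2 CPM, was -0.023 to 0.225 in floxed controls and -0.305 to 0.22 in diabetic knockouts, and the ranges overlapped. Irs1, a docking protein of the insulin receptor, had a difference of -1.23 ± 0.34 (adjusted p = 0.0547), and Akt2 one of -0.46 ± 0.16 (0.121). Klf15, a glucocorticoid-induced factor, had 33.6 ± 7.55 CPM against 18.0 ± 7.43 (-0.90 ± 0.26, 0.059), and it was called lower without library 18 (-1.15, 0.00921) and without library 17 (-0.89, 0.0476). Irs1 was called lower without library 12 (-1.39, 0.0309).

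Promoters of 3 genes that the results turn on are printed to show what the FoxO consensus looks like where it occurs. Each run is 300 bases of RefSeq sequence (GRCm38.p6, 250 bases before to 50 after an annotated start, plus strand), with the motif TGTTTAC or GTAAACA in capitals. Tspan8 was low in diabetic knockouts, Sesn1 was back at the normal level, and Trim63, the muscle ubiquitin ligase MuRF1, is described below.
Tspan8, chr10:115817034-115817333: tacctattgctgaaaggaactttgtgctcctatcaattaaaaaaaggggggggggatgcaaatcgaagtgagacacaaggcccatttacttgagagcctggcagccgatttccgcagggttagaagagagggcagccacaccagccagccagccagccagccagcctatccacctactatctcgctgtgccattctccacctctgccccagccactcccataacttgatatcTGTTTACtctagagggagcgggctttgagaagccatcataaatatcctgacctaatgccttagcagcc
Sesn1, chr10:41810324-41810623: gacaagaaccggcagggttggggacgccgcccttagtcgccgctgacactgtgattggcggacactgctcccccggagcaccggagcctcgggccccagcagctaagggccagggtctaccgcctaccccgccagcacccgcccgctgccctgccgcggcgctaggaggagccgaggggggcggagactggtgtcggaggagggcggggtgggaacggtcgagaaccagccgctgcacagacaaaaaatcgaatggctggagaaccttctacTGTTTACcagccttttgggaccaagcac
Trim63, chr4:134314870-134315169: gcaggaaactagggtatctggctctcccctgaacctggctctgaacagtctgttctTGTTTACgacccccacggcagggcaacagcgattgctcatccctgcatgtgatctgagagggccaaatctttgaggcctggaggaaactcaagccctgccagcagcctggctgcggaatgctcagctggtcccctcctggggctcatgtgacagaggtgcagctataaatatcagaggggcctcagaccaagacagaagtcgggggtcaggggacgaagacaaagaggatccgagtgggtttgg

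The motif began 18 bases before the start in Tspan8, 22 bases after it in Sesn1 and 194 bases before it in Trim63. Both strands were searched, and the forward and reverse forms do not overlap each other. Of 9698 tested genes with a promoter in the table, 297 (3.06%) held it. A gene counted when any of its listed promoters held the motif, so genes with more of them had more chances. It was held by 12 of 123 such genes called lower (9.76%) and 4 of 115 called higher (3.48%). Of the genes back at the normal level 1 of 32 held it (3.12%), and of those still changed 0 of 25. A match is a run of letters in this window and shows no binding.

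Smox, Amd1 and Amd2, genes of polyamine metabolism, fell in diabetic knockouts. Smox, spermine oxidase (chromosome 2, 131491496 to 131525922), had 176, 204, 211 and 273 CPM in floxed controls and 13.5, 19.4, 26.4, 35.4, 44.7 and 49.1 CPM in diabetic knockouts (-2.79 ± 0.46, adjusted p = 0.00194). Amd1, which supplies the aminopropyl group for spermidine and spermine, had 358 to 669 CPM against 35.3 to 218 CPM (-2.39 ± 0.47, 0.00806). Neither gene's ranges overlapped. Amd2, a near copy of Amd1 whose reads may be shared with it, fell by 2.48 ± 0.47 (0.00552). Odc1, the first enzyme of the pathway, had 135 ± 21.7 CPM against 73.3 ± 26.8 and was not called (-0.89 ± 0.26, 0.0594), though it was called without library 8 (0.027), 11 (0.0403) or 17 (0.0486). Smox and Amd1 were not called in either single-factor comparison with floxed controls: the STZ differences were -1.57 ± 0.47 (adjusted p = 0.11) and -1.66 ± 0.48 (0.091). Amd2 was called under STZ in floxed muscle (-1.94, 0.0432) and is among the still changed genes, a rule it met in 12 of 24 alternative settings. In untreated knockouts Amd2 stood at -1.85 and was not called (0.0663). When macrophage marker level was added to the fit Smox was at -2.62 (0.0739) and Amd1 at -1.72 (0.199).

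Several genes of branched-chain amino acid breakdown fell as well. Of 22 measured genes 6 fell, none rose and 20 had negative differences, with a median of -0.53 against 0.04 over all genes. Ivd, isovaleryl-CoA dehydrogenase of leucine breakdown (chromosome 2, 118861954 to 118882909), had 177, 181, 203 and 234 CPM in floxed controls and 82.8, 88.2, 88.9, 89.2, 92.3 and 107 CPM in diabetic knockouts (-1.12 ± 0.20, adjusted p = 0.00266). The diabetic knockouts were tightly grouped below the floxed range. Bckdhb and Dbt, subunits of the branched-chain ketoacid dehydrogenase, had 17.7 to 29.1 CPM against 8.69 to 12.1 CPM (-1.14 ± 0.20, 0.00256) and 29.5 to 35.1 CPM against 12.2 to 20.8 CPM (-0.98 ± 0.18, 0.00338). Ppm1k, the phosphatase that activates this complex (-0.91 ± 0.24, 0.0437), Bcat2, the mitochondrial transaminase of the first step (-1.06 ± 0.25, 0.0256), and Mut, methylmalonyl-CoA mutase (-0.70 ± 0.18, 0.0383), were called too. These 3 rested on more libraries: Bcat2 lost its call without library 1, 5, 9, 15 or 18 (0.0509 to 0.0984), Ppm1k in 18 of 25 settings, among them without 1, 4, 5, 7, 8, 9, 11, 15, 18, 19 or 21 (0.0506 to 0.209), and Mut in 15, among them without 1, 4, 5, 9, 11, 15, 18 or 19 (0.0534 to 0.133).

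Of these genes Ivd alone had been called under STZ in floxed muscle (-0.82 ± 0.20, adjusted p = 0.043). The list median was already below 0 there, at -0.44, and it was -0.33 in untreated knockouts, each against floxed controls. For the knockout effect under STZ it was -0.16. These comparisons share libraries. The mean level of the list was 0.218 to 0.46 in floxed controls and -0.43 to 0.123 in diabetic knockouts, where libraries 4, 15 and 18 were lowest. In none of the leave-one-out fits did a list member rise, and 3 to 8 fell, with a median of -0.60 to -0.45. When macrophage marker level was added no member was called and the median was -0.29. The groups did not overlap in that level, so it cannot be fully told apart from the group difference. The part of the macrophage level in these differences was not tested.

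**Figure D3:**
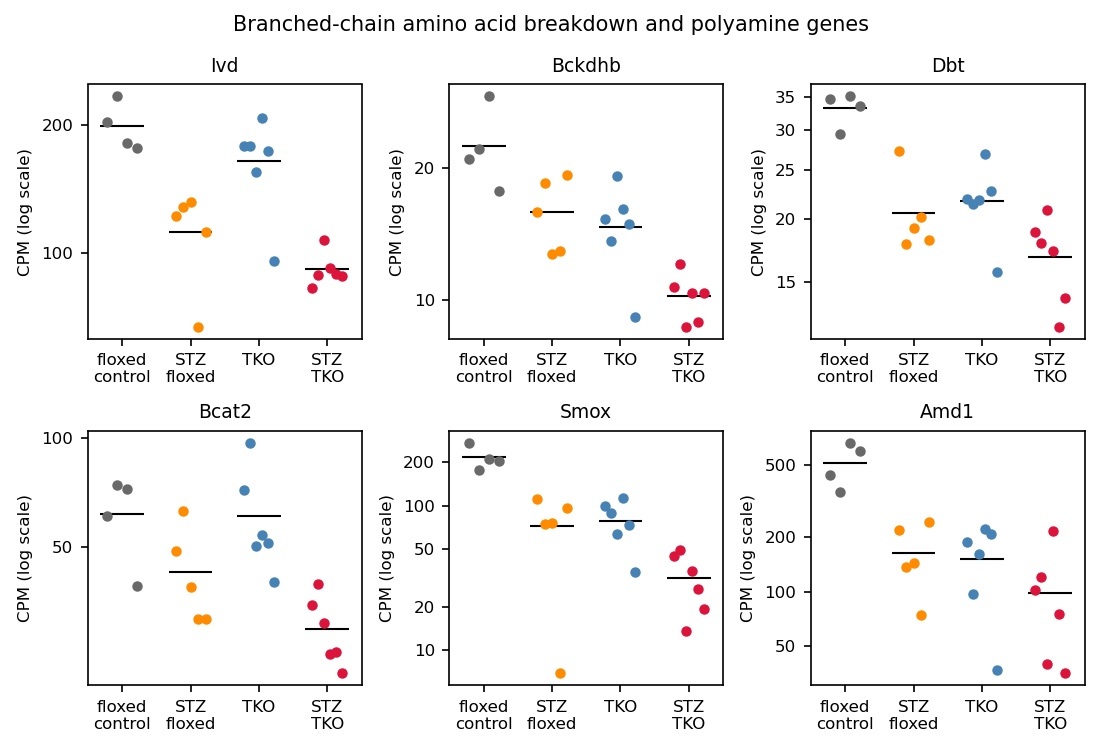
CPM on log axes in each library for genes of branched-chain amino acid breakdown (Ivd, Bckdhb, Dbt, Bcat2) and the polyamine genes Smox and Amd1, with horizontal lines at group means. STZ TKO libraries lie below the floxed controls for all except Bcat2, where 39.4 CPM in library 8 exceeds the lowest floxed value, 39.0.

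Many of the highest fold increases belonged to genes expressed in macrophages. Macrophages are the phagocytes that infiltrate damaged muscle, and ACTA1-Cre is not directed at them. Spp1, osteopontin (chromosome 5, 104435118 to 104441050), had 0.689, 1.39, 2.5 and 5.57 CPM in floxed controls and 12.1, 15.0, 80.4, 387, 681 and 769 CPM in diabetic knockouts (7.10 ± 1.21, adjusted p = 0.0119). Mpeg1, a pore-forming protein of macrophages, had 3.2 to 7.69 CPM against 26.8 to 291 CPM (4.54 ± 0.79, 0.0112). No library overlapped, but the diabetic knockouts spread widely, with libraries 4 and 15 high and libraries 11 and 12 low. Spp1 lost its call without library 1 (0.0631) or 9 (0.0544), and Mpeg1 without library 1 (0.0591).

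Several of these genes were barely counted in floxed muscle. Atp6v0d2, a proton pump subunit of osteoclasts and macrophages, had 0 counts over the 4 floxed controls and 662 over the diabetic knockouts, at least 146-fold higher against a floor of 3 counts over the group. Mmp12, the macrophage elastase, had 2 and 1426 counts, a ratio of 471 (counting interval 130.0 to 3900). Itgax, the integrin CD11c, had 5 and 1449 counts, a ratio of 192 (81.9 to 591). The counting intervals cover counting error only. Gpnmb, a glycoprotein of lipid-laden macrophages (4.30 ± 0.99, adjusted p = 0.0475), and the receptor Cd84 (4.55 ± 1.01, 0.0137) were also higher. All 5 lost their calls without library 1, 5 or 9 (adjusted p = 0.0508 to 0.156), all but Cd84 without 19 (0.0697 to 0.122), Atp6v0d2 also without 15 or 18 (0.065 and 0.0544), and Gpnmb in 18 of 25 settings, without 3, 4, 7, 11, 14, 15, 18 or 21 among them (0.0515 to 0.103).

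Of the 19 measured macrophage markers 7 rose, none fell and all 19 were positive, with a median of 1.96. They summed to 204 to 271 CPM in floxed controls and 338 to 3420 CPM in diabetic knockouts, without overlap. The mean level was -1.25 to -0.97 in floxed controls, and 2.17, 2.03, 0.848, 0.731, -0.414 and -0.591 in libraries 4, 15, 8, 18, 11 and 12. Lyz2, lysozyme, rose by 3.05 ± 0.55 (adjusted p = 0.0116) and Lgals3, galectin-3, by 3.60 ± 0.79 (0.0218). Lyz2 lost its call without library 1 (0.0631) or 5 (0.0516) and Lgals3 without 1, 5, 9 or 19 (0.0566 to 0.105). The number called was 0 with library 1 left out, 2 with library 5 or 9, 3 with library 19, 4 with library 15 and 11 with library 12 left out. Without libraries 4, 8 and 15 the median was 0.83 with 2 called. The median against floxed controls was 0.19 in STZ floxed muscle and 2.13 in untreated knockouts.

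Markers of other cell types were counted in the same way, beside 2.53% of all genes called. Of 15 endothelial markers 1 fell, the receptor Tie1 (-0.83 ± 0.17, adjusted p = 0.00886, lost without library 1 at 0.0559 or 5 at 0.0573), with a median of -0.33. Of 11 tendon markers 1 fell, Cilp2 (-2.92 ± 0.63, 0.0158, lost without library 1 at 0.107), with a median of -1.21. None of 13 fibroblast, 9 adipocyte, 9 smooth muscle, 8 Schwann cell, 5 erythroid, 3 lymphocyte or 1 neutrophil markers was called, with medians of -0.27, -1.12, -0.27, -0.24, -0.15, 1.80 and 1.89. Extracellular matrix genes had a median of -0.15 with 2 of 36 lower (Sparc and Col15a1), and -1.32 with 16 lower when macrophage marker level was in the fit. Without libraries 4, 15, 16 and 20, where 16 and 20 are untreated knockouts, 11 were lower. The part of these cell types in the differences was not tested.

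Among genes of denervation and the acetylcholine receptor, Chrna1 and Chrna9 rose. Chrna1, the receptor's alpha subunit, had 12.7, 14.8, 16.4 and 21.9 CPM in floxed controls and 29.4, 49.2, 72.6, 83.2, 96.6 and 126 CPM in diabetic knockouts (2.21 ± 0.51, adjusted p = 0.0339). Chrna9, a subunit not typical of adult muscle, had 1 count over the floxed controls and 84 over the diabetic knockouts, a ratio of 55.5 (9.7 to 2220). Of the 22 measured genes 2 rose, none fell and 18 were positive, with a median of 1.23. Over all genes 1.22% were called higher. The list median against floxed controls was 0.41 in STZ floxed muscle and 1.39 in untreated knockouts. Mean list levels of the untreated knockouts spread from -0.454 in library 13 to 1.631 in library 20. For the STZ effect in knockouts the list median was -0.26. The mean list level, which weighs every gene alike, was -0.721 to -0.553 in floxed controls and -0.197 to 0.804 in diabetic knockouts, without overlap. The summed CPM of the list, set mostly by its abundant members, did not rise: 974 to 1140 in floxed controls and 626 to 1010 in diabetic knockouts. Both calls were lost without any 1 floxed control (adjusted p = 0.0596 to 0.102), that of Chrna1 also without library 11, 15 or 18 (0.0543 to 0.0593), and the median was 0.33 with the macrophage covariate. Myogenin (Myog) was not called, with 2.9 ± 0.406 CPM against 9.23 ± 9.08 (1.68 ± 0.85, adjusted p = 0.345).

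**Figure D4:**
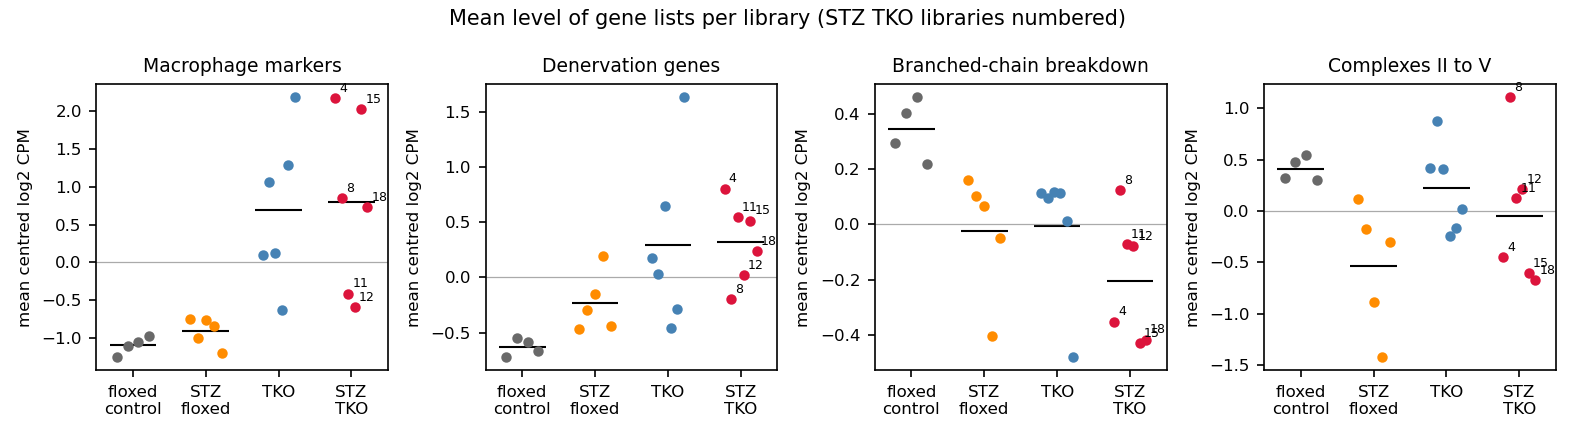
Mean centred log2 CPM of 4 gene lists in each library of the 4 groups, with group means as lines and STZ TKO libraries numbered. Macrophage markers run from -0.591 in library 12 to 2.17 in library 4 within STZ TKO muscle, and the branched-chain list lies below the floxed controls in every STZ TKO library.

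Genes of muscle protein breakdown varied widely between the diabetic knockouts. None of 21 atrophy ubiquitin ligases was called in edgeR or in DESeq2, and the median was -0.17. Over all genes edgeR called 2.53%, so few calls could come from a list of this size. Fbxo32, atrogin-1, had 374, 405, 560 and 1160 CPM in floxed controls, 1060 to 5600 CPM in STZ floxed muscle and 266, 333, 402, 575, 1320 and 2160 CPM in diabetic knockouts (0.43 ± 0.54, 95% interval -0.69 to 1.55). Trim63 had 436 to 1270 CPM in floxed controls and 253, 383, 589, 705, 1510 and 4920 CPM in diabetic knockouts (0.66 ± 0.68, interval -0.75 to 2.06). Libraries 11 and 18 were highest for both, and the intervals are too wide to place either gene within 2-fold of normal. Of 37 autophagy genes 1 fell, Atg9a, a membrane carrier of early autophagosomes (-0.77 ± 0.19, adjusted p = 0.0271, lost without library 1 at 0.115, 5 at 0.0859 or 19 at 0.0755). None of 32 proteasome subunits was called, with a median of 0.11.

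The same 2 libraries stood out for other genes. Pik3r1, the regulatory subunit of phosphatidylinositol 3-kinase, had 57.2 to 60.7 CPM in floxed controls and 82.2 to 117 CPM in 4 diabetic knockouts, with 436 in library 11 and 815 in library 18 (2.21 ± 0.50, adjusted p = 0.034). Without these libraries the difference was 0.66 (0.106), and it was 1.47 (0.0577) without library 18 alone and 2.03 (0.0556) without library 11. Leaving out any 1 floxed control also ended the Pik3r1 call (0.0877 to 0.121). Cdkn1a, the cell cycle inhibitor p21, had 28.6 to 54.0 CPM in floxed controls, 72.8 to 95.8 in 4 diabetic knockouts and 325 and 328 in libraries 11 and 18. It was not called (2.01 ± 0.57, 0.0828) but was called without STZ floxed library 17 (2.02, 0.0253). Lcn2, the iron-sequestering protein lipocalin-2, had 0.358 to 2.07 CPM against 3.57 to 8.8 CPM in 4 diabetic knockouts, with 64.4 in library 11 and 113 in library 18 (4.99 ± 1.23, 0.0351). It lost its call without library 11 (0.0534) or 18 (0.0647) and without any 1 floxed control (0.0838 to 0.136).

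**Figure D5:**
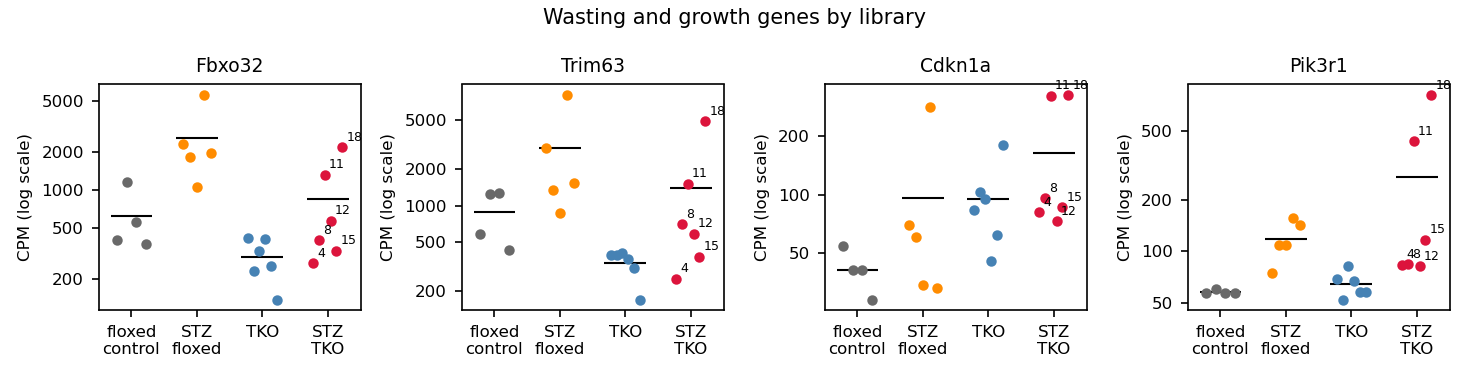
CPM on log axes for Fbxo32, Trim63, Cdkn1a and Pik3r1 in each library of the 4 groups, with group means as lines and STZ TKO libraries numbered. Libraries 11 and 18 lie above the other 4 STZ TKO libraries in each panel, for example 436 and 815 CPM for Pik3r1 against at most 117.

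Lists of the respiratory chain, the citric acid cycle and glucose use had medians below 0 and few called members, beside 2.53% of all genes called. None of 36 complex I genes was called, with a median of -0.36 (-0.77 under STZ in floxed muscle), and none of 41 genes of complexes II to V (-0.32 and -0.84). These comparisons share the floxed controls. The mean level of complexes II to V was 0.3 to 0.547 in floxed controls. In STZ floxed muscle it spread from -1.424 in library 17 to 0.12 in library 3, and in diabetic knockouts from -0.671 in library 18 to 1.105 in library 8. Without library 8 both medians were -0.68 and 1 complex I gene was called lower. None of 25 citric acid cycle genes was called (-0.23), and of 25 genes of glucose uptake, glycolysis and glycogen Slc2a4 alone was (median -0.19). Pdk4, the kinase that shuts down pyruvate dehydrogenase, had 1181 ± 631 CPM in floxed controls and 1729 ± 679 in diabetic knockouts (0.55 ± 0.45, adjusted p = 0.592). Ppargc1a, the co-activator of mitochondrial biogenesis, had 103 ± 44.6 CPM against 58.9 ± 17.2 (-0.81 ± 0.25, 0.0865), and it was called lower without library 18 (-0.96, 0.0447).

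Other lists had few called members, beside 2.53% of all genes called. Of 25 antioxidant and glutathione genes 1 rose (Cat) and 1 fell, the glutathione transferase Gstm1 (-1.10 ± 0.28, adjusted p = 0.0343), and of 16 glucocorticoid-induced genes Pik3r1 rose and Glul, glutamine synthetase, fell (-1.13 ± 0.29, 0.0368). Gstm1 had 54.0 to 84.6 CPM against 22.9 to 47.6 CPM and Glul 353 to 715 CPM against 130.0 to 342 CPM, without overlap. Both lost their calls without library 1 (0.118 and 0.0758), 5 (0.121 and 0.158) or 9 (0.0787 and 0.116), Gstm1 also without 4, 11, 15 or 18 (0.0534 to 0.0772) and Glul without 12, 15 or 18 (0.0543 to 0.084). Of 19 stress and amino acid response genes 2 fell, Chac1 and Herpud1, a protein of endoplasmic reticulum degradation (-0.69 ± 0.19, 0.0454, lost in 19 of 25 settings, and without any 1 library of the 3 groups other than 8, 17 and 19, at 0.0515 to 0.178). None of 72 ribosomal protein genes (median 0.21), 22 fast fibre genes (-0.33), 15 slow fibre genes (0.26), 15 myogenic genes (0.61) or 19 clock genes (0.13) was called.

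Both groups occurred together in 3 of the 6 runs of consecutive library codes in the titles, which the labels do not call batches. Within each of these runs 311 of the 320 called genes kept their sign, against 30.4% of all genes. The 320 were selected on these same libraries, so the agreement is largely fixed by that choice and supports nothing. Acot1 differed by 3.46, 3.00 and 3.73 on the log2 scale in the 3 runs, Ivd by -1.29, -1.39 and -0.86 and Spp1 by 8.60, 3.77 and 3.71. Among the 42 genes back at the normal level, the largest difference within a run was 1.78 in size. The 2-fold window therefore describes group means and not every run. With the run as a block 426 genes were called, which included 260 of the 320. Cat, Cd36, Pik3r1, Lgals3, Gpnmb, Ccl7 and the interferon genes Irgm1, Iigp1, Ifi47 and H2-Q7 lost their calls there (adjusted p = 0.0518 to 0.123).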

How the data were processed

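RNA of 21 muscle libraries was sequenced with a strand-keeping kit, 48 libraries to a pool, per the labels' protocols. The authors deposited whole-number read counts per Ensembl gene without normalization. STAR, featureCounts and the build GRCm38.p4 are named in the submitters' processing notes, while versions, annotation, strand setting and treatment of multi-mapping reads were not given in the sources used here. Symbols and coordinates came from GENCODE mouse release 21, which matched 45229 of 46071 identifiers.

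Samples were grouped by genotype and drug. Counts were fitted with edgeR 4.0.16 in R 4.3.3: filterByExpr kept 12658 genes, libraries were scaled by TMM, and a robust quasi-likelihood model of 4 group means over all 21 libraries gave two-sided tests with Benjamini-Hochberg adjustment at 0.05 in each comparison. The biological coefficient of variation was 0.325. Scripts were tested on simulated data. List levels are mean log2 CPM (prior count 2), centred per gene over all libraries. Every pair of the 10 libraries differed by more than sampling noise (lowest chi-square over its degrees of freedom 11.28).

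Members, lists and rules were chosen with earlier results of these data known. Named genes were the FoxO and core genes, the 10 highest and 10 lowest called genes with mean log2 CPM of at least 2 (predicted and sex-linked genes left out), the 10 returned and 10 still changed genes with the largest STZ effect, and up to 4 called genes per list; other genes were named after their values were seen. Alternatives were DESeq2 1.42.0, upper-quartile scaling, no low-count filter, only the 2 groups, the library-code run as a block, and fits without single or several libraries. Macrophage marker level as a covariate, and the fits without libraries 4, 8 and 15 or without 11 and 18, were chosen after seeing the data.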

Additional observations from a re-analysis of the deposited data

Results flagged for a closer look

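In 6 of 154 groups of 4 to 6 libraries of named genes, 1 library stood apart from the rest of its group by Dixon's criterion, and chance flags about 1 in 20 groups. Library 8 had 32.8 CPM of Atg9a, against 59.6 to 66.5 in the other diabetic knockouts, and 30.0 CPM of the collagen Col22a1, against 45.3 to 57.3. Among floxed controls, library 5 had 82.7 CPM of Pik3ip1, against 39.9 to 43.8, and 60.7 CPM of Pik3r1, against 57.2 to 57.4. Library 9 had 270.0 CPM of Scd1, against 346 to 364, and 0.172 CPM of Chrna9, 1 count where the other floxed controls had none.

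The STZ effect on Ddah1 differed between knockout and floxed muscle by 1.92 on the log2 scale (interaction in edgeR, adjusted p = 0.0179), the 1 gene of 12658 called there.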

How the results depend on the processing

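Libraries were not paired, because no replicate number is shared between groups and the labels do not call the code runs batches. The run of library codes was fitted as a block instead (426 called, 260 of them among the 320). DESeq2 called 712 genes (429 higher, 283 lower), which included all 320 of edgeR. Of the 425 genes it called under STZ in floxed muscle, 106 were back at the normal level and 96 still changed. Without the low-count filter 203 were called (82 higher), 27 were back and 22 still changed. A 1.5-fold window left 7 genes back. Without libraries 4, 15, 16 and 20, 53 genes were still changed. With macrophage marker level as a covariate 143 were called (47 higher, 96 lower), of which 66 were among the 320, and 13 were back. Floxed controls and diabetic knockouts did not overlap in that level, so calls lost there cannot be assigned to it. Without libraries 4, 8 and 15, 26 were back and 56 still changed. Without libraries 11 and 18, 76 were called lower and 71 were back. Leaving out in turn each floxed control, STZ floxed and diabetic knockout library (no untreated knockout was left out singly) gave 70 to 439 called genes (18 to 234 higher, 52 to 206 lower), 7 to 76 back and 7 to 46 still changed. Genes called under STZ in floxed muscle numbered 31 to 333 in these fits.

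Of 59 genes examined singly that were called, 12 kept the call in all 25 alternatives: Acot1, Acot2, Avil, Dpysl5, Foxo1, Foxo4, Foxo6os, Klhl33, Oxct1, Pik3ip1, Scd1 and Tspan8. The other 47 lost it in at least 1, and none reversed. Of 27 that were not called, 7 gained a call in at least 1 (Cdkn1a, Foxo3, Irs1, Klf15, Map1lc3b, Odc1 and Ppargc1a). The causes were not tested, beyond fewer libraries in the fits that leave some out. With 4 floxed controls the median SE over tested genes was 0.28 log2, which limits which genes could be placed at the normal level.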
